A study of Sus scrofa with 36 samples.

Results

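A set of 10 genes of the HSP70 and HSP110 chaperone family were followed in pig adrenal glands: HSPA8, HSPH1, HSPA4, HSPA4L, HSPA1B, HSPA2, HSPA5, HSPA9, HSPA13 and HSPA12A. They were found by the gene name of each probe or, where the name was missing, by its RefSeq transcript or NCBI gene number, which gave 10 of the 11827 named genes on the array, with 20 probes. All 20 probes were among the 45348 of the deposited expression table. One array was hybridised for each of 36 castrated pigs, which were Large White (LW), Creole (CR) or their cross (F1). In each breed, 6 pigs were kept under thermoneutral conditions (TN, 24 °C) and 6 were slaughtered under heat stress (HS), which had lasted 5 days by the protocol deposited with the arrays and 4 or 5 days by the methods, so that every group held 6 pigs. The HS temperature is 30 °C in the array labels and 32 °C in the protocol. The pigs entered the climatic room at 11 weeks of age, TN and HS pigs were slaughtered on different days, and littermates were among them, but pen, litter and day are not given with the arrays.

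HSP70 proteins bind exposed stretches of unfolded polypeptides and release them in a cycle driven by ATP. J-domain proteins bring them substrate and speed up hydrolysis, and HSP110 proteins, which are distant relatives of HSP70, exchange the nucleotide so that the substrate is let go. HSPA8 is the constitutive HSP70 of the cytosol, HSPA1B is the form induced by heat through HSF1, HSPA5 (BiP) works in the endoplasmic reticulum and HSPA9 (mortalin) in mitochondria.

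The 20 probes comprised 4 for HSPH1, 3 each for HSPA5 and HSPA13, 2 each for HSPA8, HSPA1B and HSPA2, and 1 each for the remaining members. They are numbered here from the brightest, and probe 1 stands for the gene. In RefSeq on Sscrofa11.1 HSPA8 lies at chr9:49982278-49986760, HSPH1 at chr11:7733874-7759528, HSPA4 at chr2:135345724-135391112 and HSPA2 at chr7:88607140-88609947. The 2 probes of HSPA1B carry the pig name HSP70.2, for which RefSeq lists both HSPA1A and HSPA1B as synonyms, so these copies cannot be told apart. HSPA13 probes 1 and 2 have the same 60 bases and are 1 measurement made at separate spots.

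A set of 4 probe sequences are shown because results below turn on which transcript or strand a probe reads. HSPA8 probe 2 shares 23 bases, in capitals, with the opposite strand of an unnamed probe, whose matching bases are also in capitals.

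HSPA8 probe 2: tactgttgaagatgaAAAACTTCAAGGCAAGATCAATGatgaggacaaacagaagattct

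Unnamed opposite-strand probe: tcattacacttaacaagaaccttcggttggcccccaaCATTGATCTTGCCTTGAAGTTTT

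HSPA2 probe 2 and HSPA1B probe 2 share no run longer than 6 bases and are printed without capitals.

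HSPA2 probe 2: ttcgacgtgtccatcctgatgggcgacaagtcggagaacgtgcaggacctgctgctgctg

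HSPA1B probe 2: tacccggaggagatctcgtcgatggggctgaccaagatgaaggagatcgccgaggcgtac

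Signal was sufficient for nearly all of them. No probe was saturated, and 18 of the 20 were well above background on all 36 arrays. HSPH1 probe 4 was above background on 17 TN and 17 HS arrays, and HSPA12A on 17 TN and 15 HS arrays. The arrays correlated with each other at 0.982 or more, and between 42436 and 48060 probes were well above background on each. Of the adrenal markers with a probe, all 7 of the cortex and all 5 of the medulla were well above background on all 36 arrays. Levels are log2 intensities and are compared between pigs for 1 probe, never between probes.

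The first question was which members changed under heat. HSPA8 and HSPH1 were lower in HS pigs, and 0 members were higher past the threshold. With limma and Benjamini-Hochberg adjustment over all probes, 6 of the 20 probes passed an adjusted p of 0.05 for HS minus TN. They were both HSPA8 probes and all 4 HSPH1 probes, and all were lower. HSPH1 probe 4 may read the strand opposite to the transcript, and without it the calls were 5 of 19. The 6 calls became 2 without slide 3 and 3 without slide 4, where the calls over the whole table went from 413 to 34 and 53. Of all probes tested, 0.911% passed, with 0.501% as lower and 0.41% as higher. Among the 10 genes, 9 had a lower mean in HS, with a median difference of -0.10 on the log2 scale, while the median over all probes was -5e-06.

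HSPA8 chaperones newly made proteins and uncoats clathrin vesicles. Its level in the 18 TN pigs ran from 15.54 to 16.41 with a median of 15.99 on the log2 scale. In the 18 HS pigs it ran from 14.96 to 15.98 with a median of 15.41. The ranges overlapped, but 13 HS pigs lay below the lowest TN pig and 17 of 18 had a lower value than the mean TN pig of the same breed. The difference was -0.57 ± 0.08 (SE) with an adjusted p of 0.000398, a level 0.673 times that of TN. Probe 2 fell by 0.64 ± 0.09 with an adjusted p of 0.000424.

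The array held 3 further probes that bear on HSPA8, none of which carries its name. One has no gene name and holds the same 60 bases as probe 1, and another, filed as LOC100524210, shares 53 of them. They gave -0.57 and -0.56 on the log2 scale, both with an adjusted p of 0.000424. The opposite-strand probe printed above was dim, at 6.75 ± 0.27 (SD, n = 18) in TN and 6.80 ± 0.20 (SD, n = 18) in HS. Its difference of 0.05 had an adjusted p of 0.843, and its correlation with HSPA8 probe 1 within groups was 0.0029 over 36 arrays. Both same-strand probes thus repeat the measurement of probe 1, and probe 2 had no such copy. No fall was detected at the opposite-strand probe. That probe was dim and matches HSPA8 probe 2 over 23 bases only, so it cannot tell what the opposite strand did.

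HSPH1 (HSP105), the stress-inducible HSP110 of the cytosol, ran from 11.74 to 13.19 in TN pigs with a median of 12.46. In HS pigs it ran from 11.64 to 12.72 with a median of 11.84. In all, 16 of 18 HS pigs had a lower value than the mean TN pig of the same breed, and 5 were below the lowest TN pig. The difference was -0.53 ± 0.10 (SE) with an adjusted p of 0.00966, or 0.694 times the TN level. Probes 2, 3 and 4 gave -0.56, -0.51 and -0.28, with adjusted p of 0.00146, 0.00759 and 0.0121. Probe 4 is dim and its strand is not given in the files, so that it may read the strand opposite to HSPH1.

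**Figure D1:**
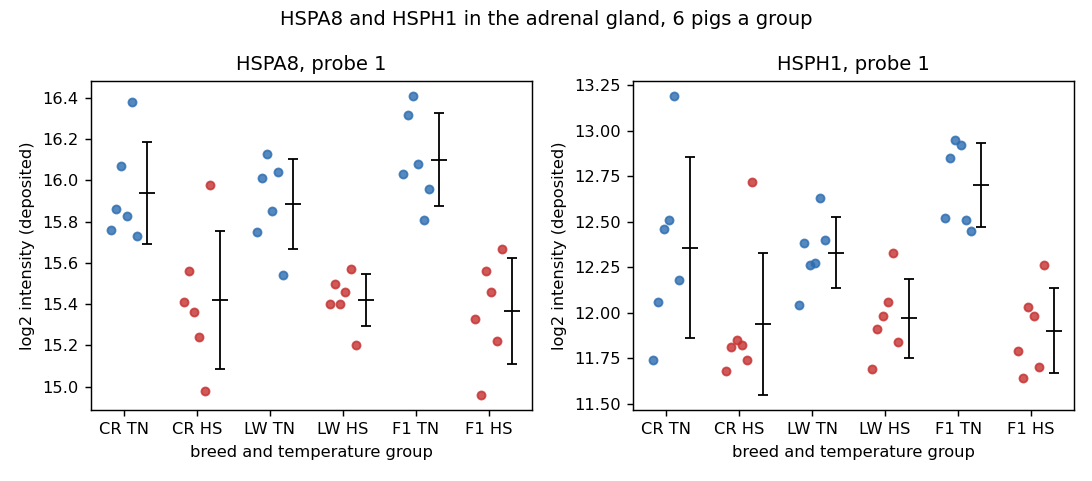
Log2 intensity of HSPA8 and HSPH1 (probe 1, y axis) in the 6 groups (x axis), with 1 point per pig, blue for TN and red for HS, and a black bar for the group mean ± SD (n = 6). In F1 all 6 HS pigs lie below all 6 TN pigs for both genes, and in CR HS 1 pig lies at 12.72 for HSPH1 while the other 5 lie between 11.68 and 11.85.

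The fall of both genes was seen in each breed, although it passed the threshold in none of them alone. HSPA8 averaged 15.94 ± 0.25 (SD, n = 6) in CR TN and 15.42 ± 0.33 in CR HS. In LW it averaged 15.89 ± 0.22 in TN and 15.42 ± 0.13 in HS. In F1 it averaged 16.10 ± 0.23 in TN and 15.37 ± 0.26 in HS. The means of the 3 HS groups thus lay between 15.37 and 15.42, and at probe 1 HS and TN pigs did not overlap in F1 but did in CR and LW. At probe 2 of HSPA8 and of HSPH1 all 6 HS pigs lay below all 6 TN pigs in LW too. Of all probes, 0.474% separated in this way in F1, 0.17% in LW and 0.075% in CR. HSPH1 had the same order, from 12.70 ± 0.23 in F1 TN down to 11.90 ± 0.23 in F1 HS. For both genes all TN groups stood above all HS groups. At probe 1 of each, the step from LW TN to LW HS was the only one between neighbouring groups that exceeded their SDs. At HSPH1 probe 2 the only such step was from F1 TN to LW TN, and at HSPH1 probe 3 no step did. At HSPH1 probes 3 and 4, HS and TN pigs overlapped in F1 too.

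The differences were -0.51 in CR, -0.47 in LW and -0.74 in F1 for HSPA8, with limma adjusted p of 0.718, 0.568 and 0.0552. For HSPH1 they were -0.42, -0.36 and -0.80, with adjusted p of 0.964, 0.786 and 0.0585. Within F1 and within CR 0 probes of the whole table passed, and within LW 5 did (0.011%). At an unadjusted p under 0.05 there were 6 member probes in CR, 9 in LW and 6 in F1, against 4.79%, 6.29% and 12.3% of all probes. Leaving out the 8 arrays of slide 5 brought 4 member probes past the threshold in F1. The share of all probes that passed in that fit is not given here, so the 4 cannot be read as a result about the members. The interaction of breed and temperature, which tests whether breeds differ in their response, passed for 0 probes of the table (1914, or 4.22%, at an unadjusted p under 0.05). It passed for 0 member probes by either p, with p of 0.342 for HSPA8 and 0.171 for HSPH1 before adjustment.

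The arrays lay on 5 slides that each held TN and HS pigs. Within each slide, with breed means removed, HSPA8 was lower in HS by values from -0.84 to -0.29 and HSPH1 by values from -0.90 to -0.21. With the slide as a block the differences were -0.57 and -0.53. Without slide 3 the HSPH1 difference was -0.51 with an adjusted p of 0.114, and without slide 4 it was -0.42 with an adjusted p of 0.0755. In whole glands, fewer cells of a type and less RNA per cell cannot be told apart. The cortex markers were lower in HS for 7 of 7 genes measured, with NR5A1 past the threshold. Their mean ranged from 15.22 to 15.61 in TN and from 15.14 to 15.62 in HS. The medulla markers were lower for 5 of 5, with 0 past the threshold and means from 13.38 to 14.11 in TN and from 13.30 to 14.0 in HS. The red blood cell markers were lower for 4 of 4, with 0 past the threshold and means from 8.71 to 10.06 in TN and from 8.46 to 9.72 in HS, and HBB, a globin, gave -0.67 with an adjusted p of 0.271. MYH2, a skeletal muscle myosin, was higher in HS past the threshold, as the only 1 of 5 muscle markers. It was dim, at 5.96 in TN and 6.43 in HS. It was well above background on 32 of 36 arrays, and 1 of its 3 probes passed. Muscle marker means ran from 9.11 to 9.54 with a median of 9.31 in TN and from 9.28 to 10.51 with a median of 9.43 in HS. The part of these tissues in the HSPA8 and HSPH1 results was not tested.

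**Figure D2:**
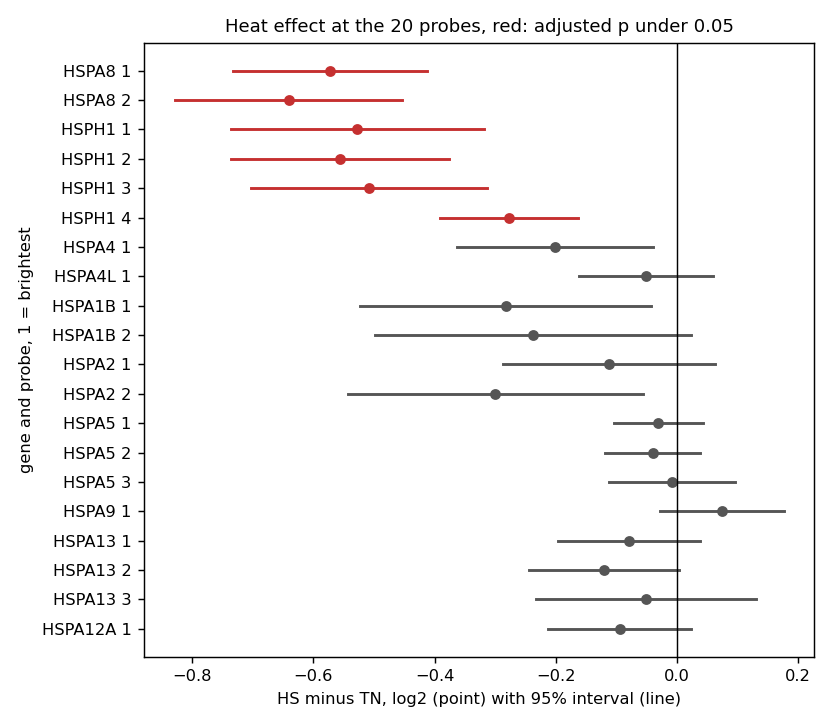
HS minus TN on the log2 scale (x axis) for each of the 20 probes (y axis, numbered from the brightest in each gene), with lines for the 95% interval and red for an adjusted p under 0.05. The 2 HSPA8 and 4 HSPH1 probes are red and lie between -0.64 and -0.28, and the intervals of the 3 HSPA5 probes cross 0.

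The remaining cytosolic members did not pass the threshold. HSPA4, an HSP110 that is mostly constitutive, differed by -0.20 ± 0.08 (SE) with an adjusted p of 0.223. By breed its difference was 0.01 in CR, -0.43 in LW and -0.19 in F1. HSPA4L, the testis-rich HSP110, differed by -0.05 with a 95% interval from -0.16 to 0.06. HSPA1B, the heat-induced HSP70, ran from 12.07 to 13.16 in TN and from 11.23 to 12.95 in HS. Its difference was -0.28 ± 0.12 with an adjusted p of 0.26 at probe 1 and -0.24 with an adjusted p of 0.427 at probe 2. The 6 CR HS pigs spread over most of the whole range, with an SD of 0.65, against 0.25 to 0.39 in the other groups.

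None of the organelle members passed the threshold. HSPA5 averaged 14.77 ± 0.09 (SD, n = 18) in TN and 14.74 ± 0.11 in HS, and its difference of -0.03 had a 95% interval from -0.10 to 0.04. Its other 2 probes gave -0.04 and -0.01. HSPA9 had a mean 0.07 higher in HS with an adjusted p of 0.561. It rests on 1 probe, at a mean of 7.24, whose sequence as filed has a stop triplet in every reading frame, while 2 frames of its reverse complement have none. That probe may read the strand opposite to HSPA9, which the files do not settle. HSPA13, a microsomal HSP70 relative, differed by -0.08, -0.12 and -0.05 at its 3 probes. HSPA12A, an atypical relative known from neurons, differed by -0.09, with an adjusted p of 0.506.

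Genes that work with HSP70 were then counted from 6 lists of partners, other heat shock proteins and heat shock factors. Of 96 listed genes 82 had a probe, and by the brightest probe 2 were lower in HS past the threshold and 0 were higher, where 0.501% of all probes were lower and 0.41% higher. BAG3, a nucleotide exchange factor that couples HSP70 to selective autophagy, averaged 13.07 ± 0.23 (SD, n = 18) in TN and 12.84 ± 0.14 in HS. Its difference was -0.23 with an adjusted p of 0.0372. Of its 6 probes, 3 passed, and 16 of 18 HS pigs were lower than the mean TN pig of the same breed at probe 1. CCT3, a subunit of the TRiC chaperonin, differed by -0.12 with an adjusted p of 0.0379 at probe 1 and by -0.10 with an adjusted p of 0.284 at probe 2.

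Among the J-domain partners, 0 of 23 genes passed by the brightest probe, but other probes of a pair of them did. DNAJA4, which delivers substrate in the cytosol, differed by -0.26 at probe 1 with an adjusted p of 0.0632 and by -0.28 at probe 2 with an adjusted p of 0.0118. DNAJB11, the J-domain partner of HSPA5, differed by -0.11 at probe 1 with an adjusted p of 0.405, and its probes 3 and 4 gave -0.16 and -0.19 with adjusted p of 0.047 and 0.0187. Of the 15 endoplasmic reticulum partners of HSPA5 with a probe, 0 passed by the brightest probe. Medians of the 6 lists lay between -0.06 and 0.0006. The largest difference in each of the other lists missed the threshold. HSPB3, a small heat shock protein of muscle, gave 0.55 with an adjusted p of 0.219. DDIT3 (CHOP), a transcription factor of the unfolded protein response, gave 0.24 with an adjusted p of 0.07. HSPA14 gave -0.09 and HSBP1, a binding protein of HSF1, gave -0.13.

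Breed levels were examined next. HSPA4 and HSPA2 were lower in LW than in CR, and probe 3 of HSPA13 was higher. In the limma F test of breed 3 of 20 member probes passed, against 10.6% of all probes. For LW minus CR the same count of 3 was found, against 11.5% of all probes, so the share of members was near that of the whole table. The 3 were 2 lower and 1 higher probe, where 5.5% of all probes were lower and 5.98% higher. Within TN 0 member probes passed, against 3.55% of all probes, and within HS 3 did, against 2.86%.

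HSPA4 ran from 9.45 to 9.91 in the 12 CR pigs with a median of 9.61, from 8.66 to 9.78 in the 12 LW pigs with a median of 8.95, and from 8.99 to 9.77 in the 12 F1 pigs with a median of 9.45. In all, 9 of the 12 LW pigs lay below the lowest CR pig, and the other 3 were LW TN pigs. LW minus CR was -0.55 ± 0.10 (SE) with an adjusted p of 0.000189. It was -0.33 with an adjusted p of 0.179 in TN and -0.77 with an adjusted p of 0.000888 in HS. The 6 LW TN pigs fell into 3 at 8.88 to 8.96 and 3 at 9.55 to 9.78, with none in the gap of 0.59 between them. The 6 LW HS pigs lay between 8.66 and 8.98, beside the lower set. The 3 higher pigs were on slides 1 and 2 and the 3 lower ones on slides 3, 4 and 5. Within slides 1 and 2, LW minus CR was -0.25 and -0.15, and within slides 3, 4 and 5 it was -0.78, -0.76 and -0.78. An LW HS pig on slide 2 had 8.87, and with the slide as a block the difference was -0.58. The interaction of breed and temperature had a p of 0.0738 for HSPA4 before adjustment.

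HSPA2, an HSP70 that is abundant in testis, ran from 10.21 to 11.10 in CR and from 9.74 to 10.37 in LW at probe 1. In all, 11 of 12 CR pigs lay above the highest LW pig. F1 pigs ran from 9.82 to 10.69 with a mean of 10.27 ± 0.30 (SD, n = 12), between CR at 10.66 ± 0.27 and LW at 10.05 ± 0.23. LW minus CR was -0.61 ± 0.11 (SE) with an adjusted p of 0.000154, and it lay between -0.72 and -0.43 within each of the 5 slides. In TN it was -0.42 with an adjusted p of 0.113, and in HS -0.79 with an adjusted p of 0.00197. An unnamed probe with the same 60 bases gave -0.55 with an adjusted p of 0.00155. Probe 2 gave -0.10 with an adjusted p of 0.741, and with the mean of both probes the difference was -0.36.

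**Figure D3:**
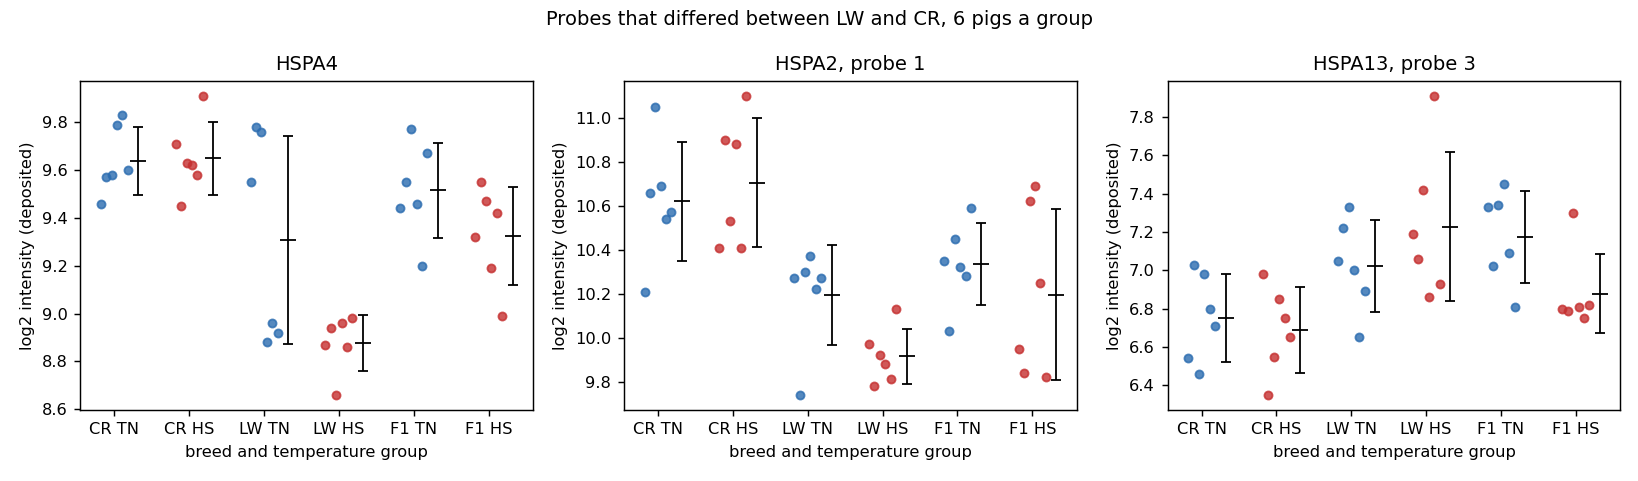
Log2 intensity (y axis) of HSPA4, HSPA2 probe 1 and HSPA13 probe 3 in the 6 groups (x axis), with 1 point per pig, blue for TN and red for HS, and a black bar for the group mean ± SD (n = 6). The LW TN pigs form an upper and a lower set for HSPA4, 11 of 12 CR pigs lie above all LW pigs for HSPA2, and LW lies above CR on average for HSPA13 probe 3.

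HSPA13 probe 3 averaged 6.72 ± 0.22 (SD, n = 12) in CR, 7.13 ± 0.33 in LW and 7.03 ± 0.26 in F1. LW minus CR was 0.40 ± 0.11 (SE) with an adjusted p of 0.0126, but probes 1 and 2 gave -0.01 and 0.06. The adjusted p of probe 3 was 0.0851 without slide 2 and 0.119 without slide 3. HSPA9, whose only probe may read the opposite strand, was higher in LW by 0.17 with an adjusted p of 0.0645, and in each of the 5 slides. For the other 6 genes, LW minus CR lay between -0.05 and 0.18, with adjusted p of 0.479 or more. F1 minus the mean of both parents passed for 0 of 20 member probes, against 0.415% of all probes (188 probes), and lay between -0.09 and 0.16 for the 10 genes. At an unadjusted p under 0.05 there were 2 member probes, against 11.2% of all probes.

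Tissue markers also differed between these breeds. Of all probes, 5.5% were lower and 5.98% higher in LW than in CR past the threshold. Of 6 adipocyte markers 4 were lower and 1 was higher in LW past the threshold. On the log2 scale ADIPOQ gave -1.62, and LPL, the higher one, gave 0.91 with an adjusted p of 0.000396. Adipocyte marker means ran from 8.83 to 10.06 in CR and from 8.69 to 9.26 in LW. Of 5 medulla markers 3 were higher in LW, with means from 13.38 to 14.0 in CR and from 13.30 to 14.11 in LW. Of 7 cortex markers 2 were lower in LW and 0 were higher, with means from 15.35 to 15.62 in CR and from 15.14 to 15.50 in LW. They were HSD3B1, an enzyme of steroid synthesis, at -0.78 with an adjusted p of 5.78e-06, and STAR, which brings cholesterol into mitochondria, at -0.34 with an adjusted p of 0.00296. Of 5 endothelial markers 1 was higher in LW, KDR at 0.68 with an adjusted p of 0.000397, with list means from 11.38 to 11.80 in CR and from 11.46 to 11.81 in LW. The part of these tissues in the HSPA4 and HSPA2 results was not tested.

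The genome beside HSPA2 was looked at after its breed difference had been seen. PPP1R36, whose gene starts 4.66 kb from HSPA2, was also lower in LW, by 0.35 on the log2 scale with an adjusted p of 0.00315. ZBTB1, 4.41 kb away on the other side, differed by -0.04 with an adjusted p of 0.797. Within groups the deviations of PPP1R36 and ZBTB1 from the group means had correlations of 0.608 and 0.551 with HSPA2, over 36 arrays. Of 14 named genes within 1 Mb of HSPA2, 2 were lower and 1 was higher in LW past the threshold, where 11.5% of all probes passed, and nothing particular to the region is shown by this count. MTHFD1, 73.5 kb away, was the other lower one, with -0.27 and an adjusted p of 0.04, and its correlation with HSPA2 was -0.677. The largest correlation in size among the 14 was that of AKAP5, 62.8 kb away, at -0.710. AKAP13 and FUT8 had -0.621 and -0.616, and the remaining neighbours of HSPA2 lay between -0.334 and 0.325. Of 10376 named genes, 0.636% had a correlation of 0.5 or more in size with HSPA2. The origin of these correlations was not tested. Beside HSPA4 12 named genes lay within 1 Mb, of which 1 was lower (P4HA2) and 1 was higher (AFF4) in LW, against the same 11.5%. Their correlations with HSPA4 ran from -0.402 for AFF4, 61.8 kb away, to 0.259.

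The last question was whether members varied together between pigs of the same group. HSPA8 and HSPH1 did. Of the 45 pairs of genes this was the only one that passed. Deviations from the 6 group means gave a Pearson r of 0.746 and a Spearman rho of 0.708 over 36 arrays, with two-sided permutation p of 2e-05 and 3e-05, and adjusted p of 0.0009 and 0.00135. Without the 2 arrays farthest from the median of HSPA8 r was 0.613, and with slide means removed it was 0.833. It was 0.688 over TN arrays and 0.817 over HS arrays. All the arrays went through 1 normalization, and array quality may act on both values of an array, which was not tested. The 45 values ranged from -0.36 to 0.746 with a median of 0.112, and 29 were positive. HSPH1 and HSPA13 had an r of 0.510, with an adjusted permutation p of 0.175.

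**Figure D4:**
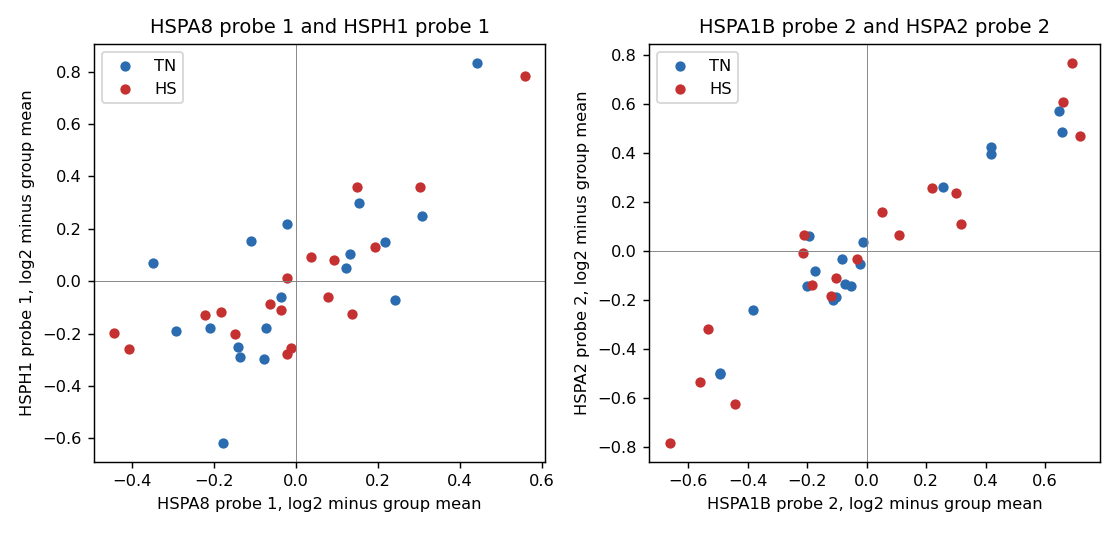
Deviation of each array from its group mean on the log2 scale for HSPA8 against HSPH1 (left) and for HSPA1B probe 2 against HSPA2 probe 2 (right), with blue points for TN and red for HS (36 arrays). Both clouds rise from lower left to upper right, with r of 0.746 on the left and 0.948 on the right.

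Set against 10376 named genes, HSPH1 was the gene with the highest r with HSPA8. The next 5 were PAPOLA, a poly(A) polymerase, with 0.738, the kinase NLK with 0.667, QRSL1 with 0.665, CST6 with 0.659 and FAM166A with 0.654. For HSPH1 the 5 highest outside the family were BZW1 with 0.790, the initiation factor subunit EIF3J with 0.777, IMP3 with 0.758, the 14-3-3 protein YWHAE with 0.740 and FNDC8 with 0.717. In this reverse ranking 3 named genes had a higher r with HSPH1 than HSPA8 did. An r of 0.5 or more in size was reached by 1.4% of the named genes for HSPA8 and by 6.13% for HSPH1. These values are descriptions over 36 arrays and carry no test.

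Probes of a gene did not always vary together. The 2 HSPA8 probes had an r of 0.886 within groups, HSPH1 probes 1 and 2 had 0.893, and the 2 HSPA1B probes had 0.833. The other 5 pairs of HSPH1 probes had lower values, from 0.399 for probes 3 and 4 to 0.628 for probes 2 and 3. HSPA2 probes 1 and 2 had an r of -0.055. HSPA2 probe 2 instead had an r of 0.948 with HSPA1B probe 2 and of 0.903 with HSPA1B probe 1, above the 0.833 between the HSPA1B probes themselves. Its HS minus TN of -0.30 ± 0.12 (SE) was also beside the -0.28 and -0.24 of HSPA1B, while HSPA2 probe 1 had -0.11. HSPA2 probe 1 and its unnamed copy had an r of 0.922. HSPA2 is described here by probe 1, its brightest, and which transcript probe 2 reads cannot be told from its name. HSPA13 probe 3 had an r of 0.117 and 0.0975 with probes 1 and 2.

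**Figure D5:**
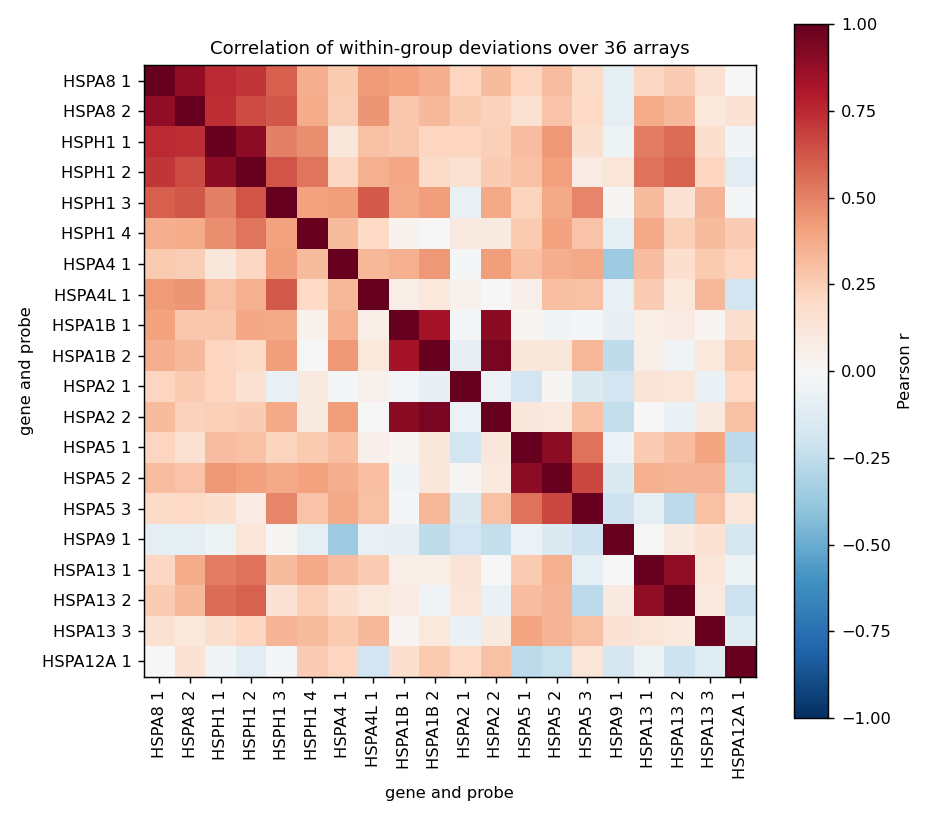
Pearson r of within-group deviations over 36 arrays for all pairs of the 20 probes (both axes, numbered from the brightest in each gene), from blue for -1 to red for 1. HSPA8 and HSPH1 probes form a red block, and HSPA2 probe 2 is red with the HSPA1B probes (0.903 and 0.948) but not with HSPA2 probe 1 (-0.055).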

How the data were processed

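Adrenal RNA of 36 pigs was measured on 1-colour Agilent arrays. The authors extracted spot intensity with Feature Extraction 10.10.1.1, and the deposited scanner files hold each spot's intensity before normalization between arrays. In the authors' deposited expression table, 45348 probes have a log2 value, made by quantile normalization of median pixel intensity. It held 0 columns of other samples. It was the source of all main values, and the scanner intensities gave the background calls and alternatives. Per member value, the table differed from the quantile-normalized scanner values by at most 0.038 on the log2 scale. Precision is limited by the number of arrays.

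Groups came from the array labels. Probes were named by the deposited annotation and RefSeq of Sscrofa11.1. Linear models (lmFit, eBayes; limma 3.58.1, R 4.3.3) were fitted to all 45348 probes with breed and temperature, without breed by temperature terms except for the interaction and within-group contrasts, with Benjamini-Hochberg adjustment and a threshold of 0.05. Pen, slaughter day and parents, random effects in the study's model, were not used. Littermates and penmates may share variation, so p-values may be too small. Correlations used 100000 permutations within groups (scipy 1.17.1). On simulated data for HS minus TN, the fit recovered 88% of 100 probes with a log2 change of 0.5 and 99% of 100 with a log2 change of 1, and made 7 false calls among 45348. The simulated noise was independent between probes and between arrays, without slide, litter, pen or day effects. These rates therefore need not hold for the real arrays.

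The members and lists were chosen with earlier results of these data known. Named genes were all members, the 5 genes nearest in pattern to HSPA8 and to HSPH1, and list genes with a probe past the threshold or the largest difference of their list. Neighbours of HSPA2 and HSPA4 were named after their values were seen. Alternatives were scanner values, normexp with an offset of 50, the processed signal at the 75th percentile, only the 39608 probes above background on all arrays, a model with slide as a block, omission of each slide and of each pig, a model without breed, and averaging of a gene's probes.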

Additional observations from a re-analysis of the deposited data

Results flagged for a closer look

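In groups of 6 pigs, the highest or lowest value of 4 of 60 member and group combinations stood apart from its group by Dixon's criterion, where chance gives about 3. HSPH1 in CR HS replicate 6 was 12.72 on the log2 scale, while the other 5 pigs lay between 11.68 and 11.85. Without this pig HS minus TN was -0.58 with an adjusted p of 0.00103 for HSPH1 and -0.61 with an adjusted p of 2.1e-05 for HSPA8, and the correlation of both genes was 0.684. HSPA4 in LW HS replicate 3 was 8.66, with the others between 8.86 and 8.98. HSPA4L in F1 HS replicate 3 was 7.22, with the others between 6.47 and 6.65. HSPA2 in LW TN replicate 2 was 9.74, with the others between 10.22 and 10.37.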

How the results depend on the processing

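HSPA8 stayed lower in HS past the threshold under all 12 alternatives run for it and with each pig left out, between -0.65 and -0.50 on the log2 scale. HSPA4 and HSPA2 stayed lower in LW under their 11 alternatives, between -0.66 and -0.48 and between -0.656 and -0.355. Member probes past the threshold for HS minus TN were 6, but 2 without slide 3 and 3 without slide 4, and 6 with each pig left out. HSPH1 missed the threshold without those slides (-0.51 and -0.42). Within F1 the count was 0, and 4 without slide 5, and between 0 and 4 with each pig left out. The shares of all probes that passed in these F1 fits are not given here. HSPA13 probe 3 missed the threshold without slide 2 (0.35, adjusted p of 0.0851) and slide 3 (0.365, adjusted p of 0.119). Over all probes, HS minus TN passed for 413, but for 899 with the slide as a block, 171 without slide 1, 40 without slide 2, 34 without slide 3 and 53 without slide 4. The cause was not tested.

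Values near 0 changed sign. For LW minus CR, HSPA8 was 0.03 without slide 5, HSPH1 was -0.013 with the slide as a block, -0.084 and -0.012 without slides 2 and 4 and -0.018 as the mean of probes, HSPA5 was 0.011 and 0.006 without slides 1 and 5, and HSPA13 was 0.009 with the processed signal, 0.046 and 0.04 without slides 4 and 5 and 0.153 as the mean of probes. For F1 minus the parental mean, HSPA5 was -0.01 and HSPA13 -0.002 without slide 2, and HSPA9 was 0.006 and 0.015 without slides 3 and 4. With each pig left out, LW minus CR ran from -0.063 to 0.031 for HSPA8, -0.058 to 0.083 for HSPH1, -0.032 to 0.001 for HSPA5 and -0.039 to 0.023 for HSPA13. F1 minus the parental mean ran from -0.002 to 0.025 for HSPA5, -0.05 to 0.002 for HSPA9 and -0.003 to 0.055 for HSPA13. No paired analysis was possible because replicate numbers follow the order of the arrays and pair no pigs.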
